A study of Mus musculus with 6 samples.

Results

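Class II histone deacetylases (HDACs) and the MEF2 transcription factors they bind were followed in Id4-GFP bright and medium mouse germ cells, with and without the de novo DNA methyltransferase Dnmt3A. The set comprised 10 of the 54087 gene rows, matched by gene symbol: the 4 class IIa genes Hdac4, Hdac5, Hdac7 and Hdac9, the 2 class IIb genes Hdac6 and Hdac10, and the 4 MEF2 genes Mef2a, Mef2b, Mef2c and Mef2d. Hdac7 was selected on its KO/KO and WT/WT counts, for its large rise in KO/KO, so its values are a description and carry no test. The other 9 genes were taken as its family members and partners, and for them the same contrast was tested.

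Cells of both genotypes carried the Id4-GFP reporter, which marks spermatogonia with stem cell properties, and the labels equate the bright and medium fraction roughly with SSC. All came from male C57BL/6 mice at 10 days post partum. There were 3 Dnmt3A KO/KO and 3 Dnmt3A WT/WT libraries of total RNA, and the labels do not say which exons are deleted, in which cells the deletion acts, or whether the numbered libraries stem from different animals. The p-values reflect only how these libraries spread, and that spread may be technical.

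Histone deacetylases remove acetyl groups from histones and other proteins. Class IIa enzymes have little deacetylase activity of their own and act mainly as scaffolds: they bind MEF2 factors on DNA, recruit corepressor complexes with HDAC3, and keep MEF2 target genes off. Phosphorylation by CaMK, PKD, MARK and salt-inducible kinases lets 14-3-3 proteins bind them and carry them out of the nucleus, which frees MEF2. HDAC7 is best known from endothelial cells and developing lymphocytes. The class IIb enzymes are largely cytoplasmic: HDAC6 deacetylates tubulin and HDAC10 deacetylates a polyamine.

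Gene rows summed to between 43951664 and 61749155 counts in KO/KO and between 42681201 and 48423509 in WT/WT libraries. Levels are given in CPM, the reads of a gene scaled to a common library size. Dnmt3a, the deleted gene, had 90.2, 104 and 99.5 CPM in KO/KO libraries and 215, 193 and 188 CPM in WT/WT libraries (log2 fold change -1.02, SE 0.09, edgeR adjusted p = 0.000222), counted over the whole gene. The germ cell genes Ddx4, at 437 ± 32.6 CPM in KO/KO and 369 ± 10.2 CPM in WT/WT, and Dazl, at 353 ± 49.4 and 433 ± 32.1 CPM in the same order of genotypes (SD, n = 3 each), were abundant in all libraries. The KO/KO libraries differed from each other more than the WT/WT libraries did: the chi-square per degree of freedom of their gene counts was 36.3 and 37.1 between KO/KO replicate 1 and replicates 2 and 3, and 49.2 between replicates 2 and 3, against 12.4 to 14.8 between WT/WT libraries. Against the WT/WT libraries it was 34.5 to 35.4 for KO/KO replicate 1 and 69.7 to 90 for the other 2 KO/KO libraries. Clu, a transcript of the Sertoli cells that surround spermatogonia, was detected in every library, at 194, 229 and 300 CPM in KO/KO and 309, 273 and 186 CPM in WT/WT.

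Hdac7 was about 10.1 times as abundant in KO/KO as in WT/WT by mean CPM. The gene lies on chromosome 15 (97792664 to 97844502, minus strand, GRCm38). It had 3006, 4920 and 5814 reads in the KO/KO libraries, equal to 67.2, 99.7 and 90.2 CPM, against 425, 374 and 325 reads in the WT/WT libraries, equal to 9.70, 7.77 and 7.97 CPM. All 3 KO/KO libraries lay far above all 3 WT/WT libraries, and KO/KO replicate 1 was the lowest of its group. The log2 fold change was 3.34 (SE 0.17), and 3.5 without KO/KO replicate 1. Its fold change ranked 93 among all 21314 genes tested, and 13 among the 13817 averaging 1 or more on the log2 CPM scale. Both ranks are a measure of the choice itself. In bulk RNA, fewer cells of a type and less RNA per cell cannot be told apart.

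**Figure D1:**
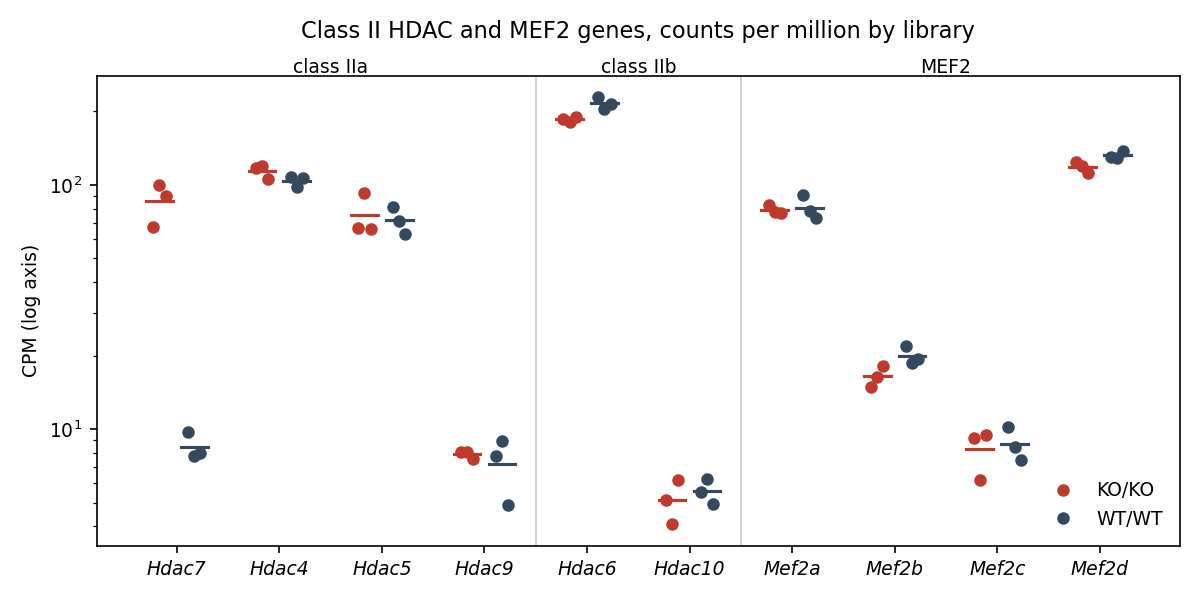
CPM on a log axis for each of the 10 genes, with 3 KO/KO libraries (red, left) and 3 WT/WT libraries (dark, right) per gene and a bar at each mean. The Hdac7 groups are separated by about 1 unit of log10, at 67.2 to 99.7 CPM against 7.77 to 9.70 CPM, and for each other gene the groups lie close together.

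RefSeq places 4 transcription starts within Hdac7, spread over 29639 bases, and they differ in CpG content, the substrate of DNA methyltransferases. In windows of 300 bases, 250 before and 50 from the start on, starts 1 and 4 in the direction of transcription held 6 and 5 CpG dinucleotides, and starts 2 and 3 held 35 and 31. The median of 32851 windows in the RefSeq table was 7, and the 4 Hdac7 windows lay at the percentiles 45.7, 93.4, 90.0 and 40.8. The 250 bases before starts 1, 2 and 4 are shown because they display this contrast within one gene, with each CpG in capitals (GRCm38.p6, minus strand, read 5′ to 3′). They span chr15:97844503-97844752, chr15:97831768-97832017 and chr15:97814864-97815113.
Hdac7 start 1: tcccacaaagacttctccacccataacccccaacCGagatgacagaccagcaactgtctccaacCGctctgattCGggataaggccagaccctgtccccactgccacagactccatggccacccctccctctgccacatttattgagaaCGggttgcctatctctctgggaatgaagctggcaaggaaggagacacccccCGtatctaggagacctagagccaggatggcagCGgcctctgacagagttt
Hdac7 start 2: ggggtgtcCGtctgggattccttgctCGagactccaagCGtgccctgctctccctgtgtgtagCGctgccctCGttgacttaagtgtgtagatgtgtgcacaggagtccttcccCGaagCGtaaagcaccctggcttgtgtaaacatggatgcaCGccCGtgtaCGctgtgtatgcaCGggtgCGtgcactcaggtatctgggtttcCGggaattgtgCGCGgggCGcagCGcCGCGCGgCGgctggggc
Hdac7 start 4: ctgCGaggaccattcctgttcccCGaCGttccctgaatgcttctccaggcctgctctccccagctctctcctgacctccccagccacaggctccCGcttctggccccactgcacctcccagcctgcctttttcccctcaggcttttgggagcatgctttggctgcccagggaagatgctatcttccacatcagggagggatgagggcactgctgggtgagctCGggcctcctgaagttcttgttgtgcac

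In start 1 and start 4 the capitals are few and scattered. In start 2 they crowd towards the 3′ end, next to the start itself. The deposited counts are totals per gene, so they do not show from which start the KO/KO reads came, and DNA methylation was not measured in these files. Windows for 8 of the other 9 genes were in the table. Hdac4 held 32 CpG in its window, Mef2a 27, Mef2d 24, Hdac6 20, Hdac5 18 and Mef2b 11, whereas the 2 windows of Hdac9 held 0 and 3 and the 3 of Mef2c 1, 10 and 4. CpG-rich and CpG-poor starts both occurred among these genes.

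**Figure D2:**
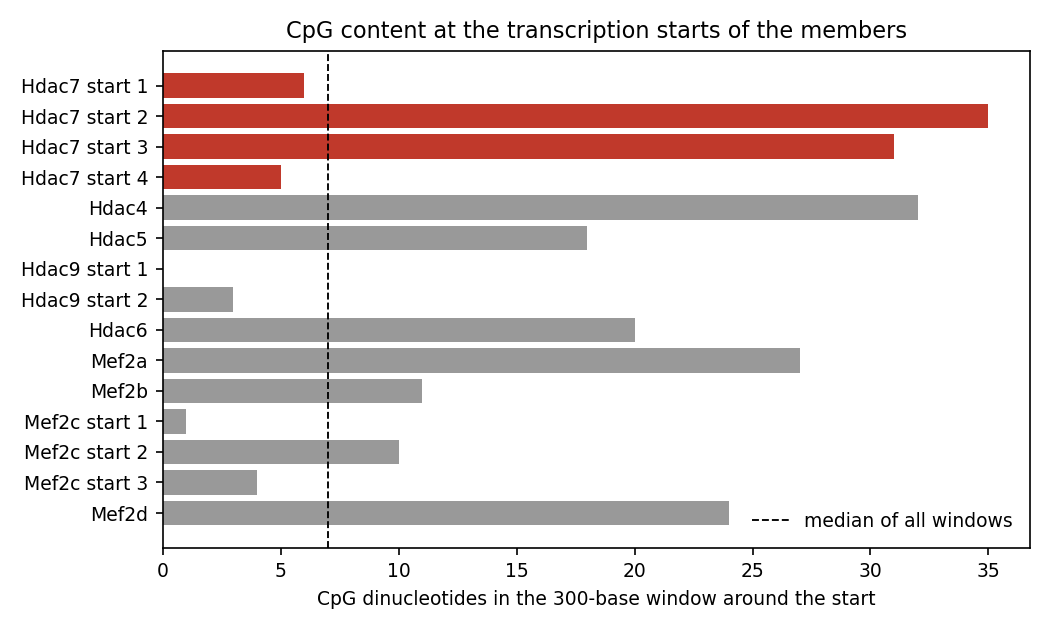
Number of CpG dinucleotides in the 300-base window at each RefSeq start, with starts of 1 gene numbered in the direction of transcription, Hdac7 in red and the median of all windows dashed. Hdac7 has 2 starts with 35 and 31 CpG and 2 with 6 and 5, and the other genes range from 0 to 32.

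None of the 9 other genes passed the test in either direction (edgeR, adjusted p under 0.05 over 21314 genes). Over all genes tested the same rule called 14.8%, of which 8.33% were higher and 6.42% lower in KO/KO. All 10 genes passed the filter on low counts. An unadjusted p under 0.05 was found for 2 of the 9, Hdac6 and Mef2b, against 6284 of the 21314 genes tested, and DESeq2 likewise called 0 after adjustment and 2 before it. Their log2 fold changes lay between -0.28 and 0.14, with a median of -0.08, against a median of 0.00 over all genes tested. The 2 genotypes did not overlap in CPM for 3 of the 9, against 35.8% of all genes.

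Among the class IIa genes, Hdac4 and Hdac5 were well expressed and Hdac9 was low. Hdac4, a regulator of bone and muscle differentiation (chromosome 1, 91928779 to 92195699), had 118, 120 and 105 CPM in KO/KO and 107, 97.6 and 107 CPM in WT/WT. The KO/KO libraries reached higher, but the groups overlapped (log2 fold change 0.14, 95% interval -0.05 to 0.33, edgeR adjusted p = 0.317). Of its exon bases 22.4% lie under Gm26720, a noncoding gene on the opposite strand, and whether strand was used in counting is unknown here.

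Hdac5, which with Hdac9 restrains growth of heart muscle (chromosome 11, 102194432 to 102230166), had 66.7, 92.6 and 65.9 CPM in KO/KO and 80.8, 71.1 and 63.2 CPM in WT/WT. KO/KO replicate 2 was the highest of the 6 libraries and the other 2 KO/KO libraries lay within the WT/WT range (log2 fold change 0.07, 95% interval -0.26 to 0.39, edgeR adjusted p = 0.805; -0.11 without KO/KO replicate 2). Hdac9 (chromosome 12, 34047580 to 34917095) had 8.06, 8.03 and 7.57 CPM in KO/KO and 7.74, 8.91 and 4.90 CPM in WT/WT. Its WT/WT libraries spread on both sides of the KO/KO ones, and the log2 fold change of 0.13 had a wide interval, -0.35 to 0.61 (edgeR adjusted p = 0.730; -0.08 without WT/WT replicate 3).

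Because long genes collect more reads, levels of different genes were compared as CPM per kilobase of annotated exons. On this scale Hdac5, at 8.55 ± 1.73 in KO/KO and 8.17 ± 1.01 in WT/WT, and Hdac4, at 7.22 ± 0.49 in KO/KO and 6.57 ± 0.34 in WT/WT, were the main class IIa transcripts of WT/WT cells (SD, n = 3 each). Hdac7 stood at 12.7 ± 2.48 in KO/KO and 1.26 ± 0.16 in WT/WT, and Hdac9 at 0.54 ± 0.02 and 0.49 ± 0.14 in KO/KO and WT/WT. In WT/WT, Hdac7 thus lay below Hdac4 and Hdac5 and above Hdac9, and in KO/KO its mean was the highest of the class, although its replicate 1, at 9.94, lay below the 10.5 of Hdac5 in replicate 2. With the longest transcript as the length, the KO/KO mean of Hdac7 was 16.5 ± 3.23. Hdac4, at 14.1 ± 0.96, and Hdac5, at 13.9 ± 2.80, then lay within that SD of it, so the order in KO/KO depends on the length used.

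Hdac7 made up 38.9%, 44.2% and 47.6% of the class IIa sum per length in the KO/KO libraries, against 8.0%, 7.17% and 7.63% in the WT/WT libraries. With the longest transcript as the length, the mean share was 36.2% in KO/KO and 5.71% in WT/WT. The summed level of the other 3 class IIa genes was 16.3 ± 2.08 in KO/KO and 15.2 ± 1.17 in WT/WT (SD, n = 3 each), a difference smaller than the spread between libraries.

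**Figure D3:**
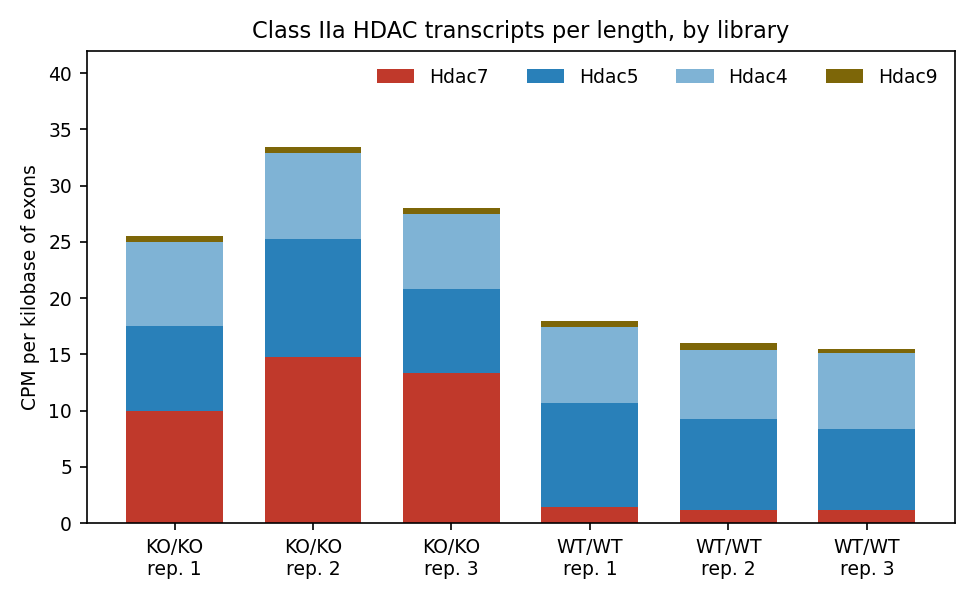
CPM per kilobase of exons of the 4 class IIa genes, stacked for each of the 6 libraries, KO/KO on the left. The stacks reach 25.5 to 33.4 in KO/KO and 15.5 to 17.96 in WT/WT, and the red Hdac7 part makes most of the difference.

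The class IIb genes had the highest and 1 of the lowest levels of the set. Hdac6, the tubulin deacetylase (chromosome X, 7930120 to 7947889), had 187, 181 and 190 CPM in KO/KO and 229, 205 and 215 CPM in WT/WT, and per length it was the most abundant of the 10 genes in both genotypes, at 32.0 ± 0.81 and 37.2 ± 2.04 in KO/KO and WT/WT. Every KO/KO library lay below every WT/WT library, by a small step that did not pass the adjusted threshold (log2 fold change -0.22, 95% interval -0.38 to -0.05, edgeR adjusted p = 0.0784). Leaving out a library or changing the processing gave adjusted p of at least 0.0755. Hdac10, the polyamine deacetylase (chromosome 15, 89123307 to 89128700), had 5.14, 4.07 and 6.17 CPM in KO/KO and 5.52, 6.27 and 4.93 CPM in WT/WT. The groups overlapped, and the interval of its log2 fold change of -0.12 ran from -0.57 to 0.34 (edgeR adjusted p = 0.743; 0.02 without KO/KO replicate 2).

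The 4 MEF2 genes had negative estimates, none past the test. Mef2d, the most abundant of them (chromosome 3, 88142372 to 88172086), had 124, 120 and 111 CPM in KO/KO and 131, 129 and 137 CPM in WT/WT. The groups did not overlap, yet the difference was small (log2 fold change -0.16, 95% interval -0.33 to 0.01, edgeR adjusted p = 0.203), and 8.87% of the exon bases of Mef2d lie under an antisense transcript. Mef2a (chromosome 7, 67231163 to 67372858) had 82.4, 77.3 and 76.8 CPM in KO/KO and 90.7, 78.1 and 73.1 CPM in WT/WT, with overlapping groups (log2 fold change -0.03, 95% interval -0.25 to 0.18, edgeR adjusted p = 0.862; 0.06 without WT/WT replicate 1).

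Mef2b (chromosome 8, 70139711 to 70167488), a factor best known from germinal centre B cells, had 14.9, 16.3 and 18.1 CPM in KO/KO and 21.8, 18.6 and 19.4 CPM in WT/WT. All KO/KO libraries were lower, and the interval of the log2 fold change of -0.28 ran from -0.56 to just under 0 (edgeR unadjusted p = 0.0492, adjusted p = 0.168). It shares 4.42% of its exon bases with Borcs8 on the same strand. Mef2c (chromosome 13, 83504034 to 83667080), needed for heart and muscle development, had 9.18, 6.16 and 9.41 CPM in KO/KO and 10.2, 8.41 and 7.45 CPM in WT/WT, with overlapping groups (log2 fold change -0.08, 95% interval -0.53 to 0.38, edgeR adjusted p = 0.845; 0.10 without KO/KO replicate 2). Per length the order in WT/WT was Mef2d at 22.1 ± 0.74, Mef2b at 14.2 ± 1.18, Mef2a at 5.49 ± 0.62 and Mef2c at 0.55 ± 0.09, with no overlap between neighbours, and the KO/KO order was the same. With the longest transcript as the length, Mef2a at 14.6 ± 1.63 and Mef2b at 14.9 ± 1.23 in WT/WT were not separated, and in KO/KO Mef2a, at 14.2 ± 0.56, lay above Mef2b, at 12.2 ± 1.20.

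**Figure D4:**
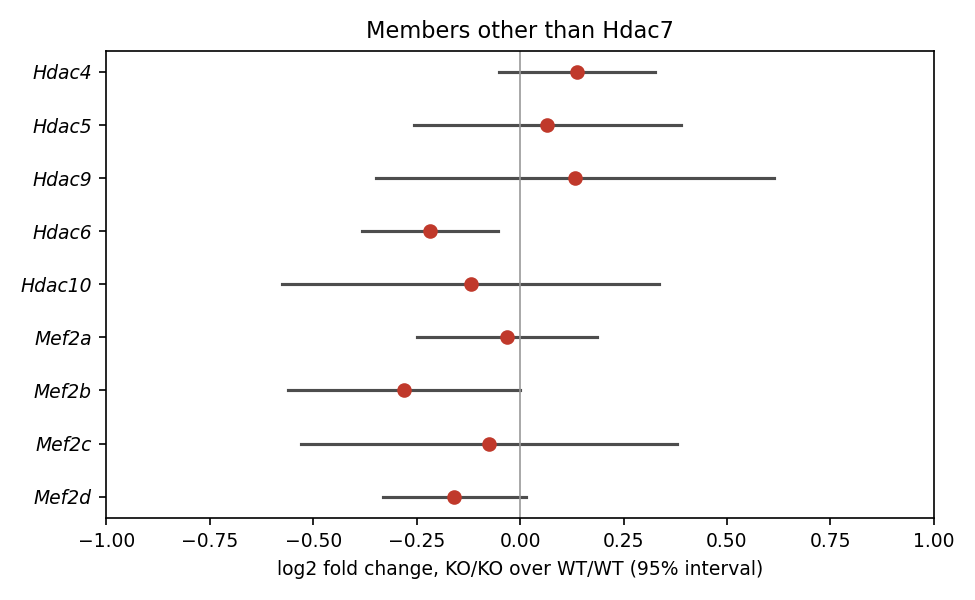
Log2 fold change of KO/KO over WT/WT for the 9 genes other than Hdac7, as points with 95% intervals from the edgeR fit. All points lie between -0.28 and 0.14, and no upper bound exceeds 0.61.

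A MEF2 consensus motif was sought in the RefSeq start windows on both strands, because MEF2 factors regulate some genes of these families. It was present in 2 of the 15 windows of these genes and in 3.19% of all windows. The matches are shown as the members' own sites, minus strand of GRCm38.p6, with the motif in capitals, at chr11:102230183-102230192 before the start of Hdac5 and at chr7:67372851-67372860 across the start of Mef2a.
Hdac5: CTATTTTTAG
Mef2a: CTAAAAATAG

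None of the Hdac7 windows held these letters. Both genes with a match had overlapping groups.

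Around Hdac7, 8 protein-coding genes lie within 250 kb, and 7 of them could be tested. Of these 3 rose and none fell, against 14.8% called over all genes. Rapgef3, the cAMP-activated exchange factor EPAC1, lies 24.7 kb downstream of Hdac7 and had 42.04, 52.8 and 56.5 CPM in KO/KO and 20.2, 17.5 and 19.3 CPM in WT/WT (log2 fold change 1.41, SE 0.13, edgeR adjusted p = 0.000306). Slc48a1, a haem transporter gene on the opposite strand whose end overlaps the end of Hdac7 by 29 exon bases, had 8.71, 8.94 and 16.3 CPM in KO/KO and 3.24, 4.63 and 3.995 CPM in WT/WT (log2 fold change 1.52, SE 0.27, edgeR adjusted p = 0.00550). For both genes every KO/KO library was above every WT/WT library.

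The smallest of the 3 rises was that of Senp1, a SUMO protease gene 194.2 kb upstream (log2 fold change 0.30, SE 0.08, edgeR adjusted p = 0.0418). It did not pass when KO/KO replicate 2 or 3 or any 1 WT/WT library was left out (edgeR adjusted p between 0.0564 and 0.208). Vdr, the vitamin D receptor gene and the nearest on the upstream side at 9.9 kb, had 8.73, 11.1 and 13.1 CPM in KO/KO and 9.97, 8.49 and 4.95 CPM in WT/WT, with overlapping groups (log2 fold change 0.49, edgeR adjusted p = 0.229). Rpap3, Tmem106c and Col2a1 did not pass the test, with log2 fold changes of 0.27, 0.16 and -0.25, and Endou had too few counts. Without a strand setting, reads of Hdac7 and Slc48a1 in their shared bases cannot be told apart.

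**Figure D5:**
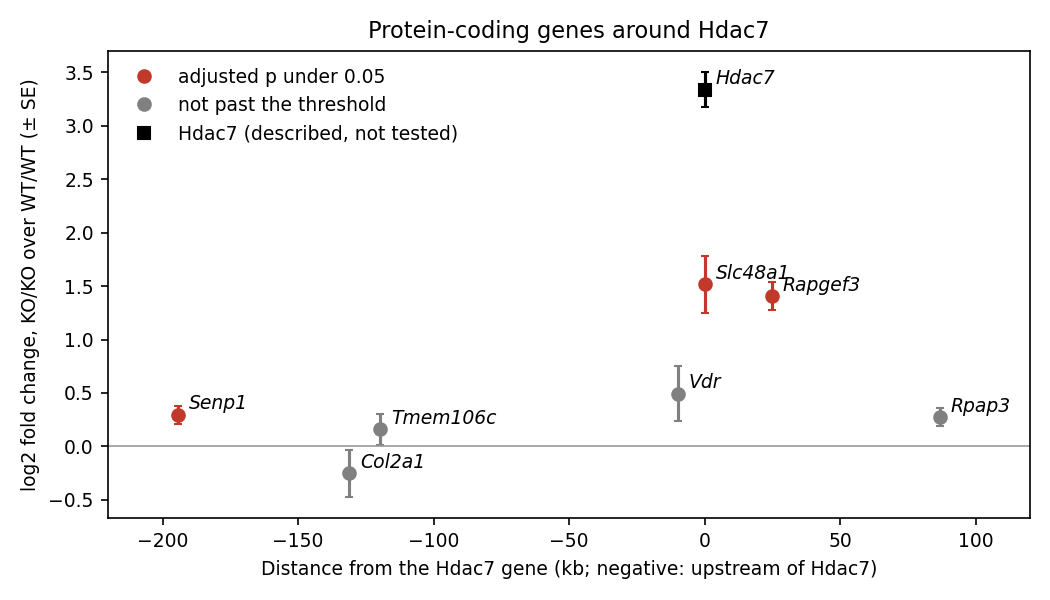
Log2 fold change (± SE) of KO/KO over WT/WT against distance from Hdac7 in kb, for the 7 tested neighbours and Hdac7 itself (black square). Slc48a1 at 1.52 and Rapgef3 at 1.41, overlapping or just downstream of Hdac7, stand above the other neighbours, which lie between -0.25 and 0.49.

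The 5 genes whose profile over the 6 libraries was most like that of Hdac7 were Tnfrsf26, Glmp, Dll4, Hoxc9 and Cdh5, by Euclidean distance of log2(CPM + 0.5) from each gene's own mean, among 11804 candidates. Their distances were 0.446, 0.453, 0.570, 0.573 and 0.634. Tnfrsf26, a decoy receptor of the TNF family, had 4.54, 5.92 and 5.44 CPM in KO/KO and 0.183, 0.228 and 0.221 CPM in WT/WT. Dll4, a Notch ligand of endothelial cells, had 20.1, 28.7 and 28.3 CPM in KO/KO and 3.06, 2.74 and 1.47 CPM in WT/WT. Cdh5, the cadherin of endothelial junctions, had 38.7, 68.3 and 48.0 CPM in KO/KO and 7.03, 7.25 and 5.32 CPM in WT/WT. Glmp averaged 17.4 CPM in KO/KO and 1.72 CPM in WT/WT, and Hoxc9 averaged 5.53 and 0.312 CPM in the same order. For all 5 genes the groups did not overlap, which largely follows from choosing them by likeness to Hdac7. With 2 groups of 3 libraries, likeness to Hdac7 mostly measures the size of the same difference.

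Some markers of cell types known for HDAC7 were higher in KO/KO as well. Of 12 endothelial markers 10 could be tested, of which 5 rose (Cdh5, Kdr, Flt1, Vwf and Sox18) and 1, the transcription factor Erg, fell. Of those tested 60% were called, against 14.8% over all genes. The summed level of the 12 was between 152 and 186 CPM in KO/KO and between 73.6 and 81.0 CPM in WT/WT. Tie1 and Emcn had too few reads to be tested, at most 11 in any KO/KO and 6 in any WT/WT library. Cldn5 was low, at 18, 23 and 28 reads in KO/KO and 10, 5 and 1 in WT/WT. Its groups were separated but it did not pass (log2 fold change 1.84, edgeR adjusted p = 0.0914). Egfl7 had overlapping groups (log2 fold change 0.42, edgeR adjusted p = 0.267). Pecam1, at 5.23, 3.77 and 3.12 CPM in KO/KO and 3.24, 4.88 and 2.696 CPM in WT/WT, and Tek, at 2.77, 2.29 and 3.01 CPM in KO/KO and 2.99, 3.39 and 2.75 CPM in WT/WT, overlapped between the genotypes. Sox18 lost its call without KO/KO replicate 2 or 3 and without each WT/WT replicate (edgeR adjusted p between 0.0601 and 0.139). Erg lost its call without KO/KO replicate 2 and without each WT/WT replicate (edgeR adjusted p between 0.0506 and 0.107).

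Of 9 T cell markers 4 could be tested and 2, Cd2 and the kinase gene Lck, rose, 50% against 14.8% over all genes. The summed level of the 9 was 10.9 to 26.7 CPM in KO/KO and 2.94 to 3.82 CPM in WT/WT. Cd2, at a mean of 13.2 CPM, and Lck, at 5.51 CPM, made up most of the KO/KO sum. Ptprc, also tested, had 11, 10 and 1 reads in KO/KO and 5, 18 and 17 in WT/WT. Its groups overlapped (log2 fold change -1.01, edgeR adjusted p = 0.462). The markers Cd3d, Cd3g, Cd4, Cd8a and Rag1 had between 0 and 5 reads in every library. Cd3e, another chain of the same receptor complex, had 13, 20 and 34 reads in KO/KO and 32, 51 and 50 reads in WT/WT, lower in all 3 KO/KO libraries (log2 fold change -1.28, edgeR adjusted p = 0.0592, DESeq2 adjusted p = 0.0432). Of the macrophage markers only Cd68 could be tested, and it rose (log2 fold change 1.47, edgeR adjusted p = 0.00402). The summed level of the list was 4.38 to 5.32 CPM in KO/KO and 1.37 to 2.01 CPM in WT/WT. Among the untested markers, Aif1 had 4, 14 and 23 reads in KO/KO and 3, 0 and 0 in WT/WT. Adgre1 had 0 or 1 read in every library, and Csf1r, Itgam and Cx3cr1 were low and overlapped between the genotypes. The part of such cells in the level of Hdac7 was not tested. Of 6 Sertoli markers none passed the edgeR test, against 14.8% over all genes, 0 had an unadjusted p under 0.05 and DESeq2 called 0. Their summed levels were 374 to 533 CPM in KO/KO and 363 to 577 CPM in WT/WT. Of 8 germ cell markers Id4 and Gfra1 rose and Zbtb16 and Sall4 fell, 50% against 14.8% over all genes. Id4, after which the reporter is named, had 86.7, 176 and 159 CPM in KO/KO and 36.9, 38.0 and 38.4 CPM in WT/WT. The log2 fold change was 1.01 for Gfra1 and -0.56 for Zbtb16. Whether the sorted cells differed in make-up was not tested. Sall4 did not pass when any 1 library other than KO/KO replicate 2 was left out (edgeR adjusted p between 0.0578 and 0.171).

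The other deacetylases gave no call, against 14.8% called over all genes, a share at which lists this short can hold none. An unadjusted p under 0.05 was found for 6284 of the 21314 genes tested. Of the 5 class I and IV genes none passed the edgeR test, 0 had an unadjusted p under 0.05 and DESeq2 called 0 (median log2 fold change 0.01, against 0.00 over all genes). Hdac3, the catalytic partner of class IIa enzymes, had 30.9, 26.1 and 26.9 CPM in KO/KO and 27.7, 27.1 and 28.8 CPM in WT/WT, with overlapping groups (edgeR adjusted p = 0.983). Hdac1 had 93.7, 86.8 and 87.4 CPM in KO/KO and 96.9, 98.8 and 107 CPM in WT/WT, below WT/WT in all 3 KO/KO libraries but not past the threshold (edgeR adjusted p = 0.178). Of the 7 sirtuins, the NAD-dependent deacetylases, none passed the edgeR test, 2 had an unadjusted p under 0.05 and DESeq2 called 0 (median log2 fold change 0.24). Sirt1 passed when KO/KO replicate 1 was left out (log2 fold change -0.52, edgeR adjusted p = 0.0260).

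Of 10 corepressor partners of class IIa enzymes none passed the edgeR test, against 14.8% called over all genes. An unadjusted p under 0.05 was found for 3, and DESeq2 called 0 (median log2 fold change of the list -0.08). Tbl1x, a subunit of HDAC3 corepressor complexes, had a log2 fold change of -0.31 (edgeR adjusted p = 0.0762, and 0.0281 without KO/KO replicate 1).

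Of 19 kinases that act on class IIa enzymes 2 rose and 1 fell, 15.8% against 14.8% over all genes. Prkd2, a protein kinase D, had 12.3, 18.7 and 15.4 CPM in KO/KO and 7.30, 7.19 and 6.84 CPM in WT/WT (log2 fold change 1.12, SE 0.17, edgeR adjusted p = 0.00277). Camk4, a calcium-dependent kinase, had 3.75, 2.39 and 2.25 CPM in KO/KO and 8.06, 7.04 and 6.37 CPM in WT/WT (log2 fold change -1.36, SE 0.23, edgeR adjusted p = 0.00502). For both genes the groups were fully separated, in opposite directions. Camk2g rose (log2 fold change 0.50, edgeR adjusted p = 0.0136), but not without WT/WT replicate 2 or 3 (edgeR adjusted p = 0.0773 and 0.0661). Camk1d was called only in some fits, among them that without KO/KO replicate 1 (log2 fold change 0.59, edgeR adjusted p = 0.00768).

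Of 7 genes for 14-3-3 proteins, the carriers of phosphorylated class IIa enzymes, Sfn rose (log2 fold change 1.04, edgeR adjusted p = 0.0233) and Ywhaq fell (log2 fold change -0.33, edgeR adjusted p = 0.0389). This is 28.6% called, against 14.8% over all genes. Sfn was low, at 4.24, 2.98 and 4.90 CPM in KO/KO and 1.71, 2.35 and 1.81 CPM in WT/WT. Sfn lost its call without KO/KO replicate 3 and without each WT/WT replicate (edgeR adjusted p between 0.0537 and 0.0926), and Ywhaq without KO/KO replicate 2 and without each WT/WT replicate (edgeR adjusted p between 0.0647 and 0.146). Ywhab passed without KO/KO replicate 1 (edgeR adjusted p = 0.0452) and Ywhag without KO/KO replicate 2 (edgeR adjusted p = 0.0102). Of 7 phosphatase genes none passed the edgeR test, against 14.8% over all genes. An unadjusted p under 0.05 was found for 2, and DESeq2 called 0. Ppp3ca passed without KO/KO replicate 1 (edgeR adjusted p = 0.0499).

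Of 7 MEF2 activators and coactivators 1 was called, 14.3% against 14.8% over all genes. It was the arginine methyltransferase gene Carm1, which fell, at 67.7, 60.5 and 65.7 CPM in KO/KO and 83.2, 78.0 and 77.8 CPM in WT/WT (log2 fold change -0.30, edgeR adjusted p = 0.0393). Its call was lost without KO/KO replicate 2 or 3 and without each WT/WT replicate (edgeR adjusted p between 0.0645 and 0.150). The acetyltransferase gene Ep300 had 377, 447 and 355 CPM in KO/KO and 338, 321 and 313 CPM in WT/WT (edgeR adjusted p = 0.0756, and 0.0372 without KO/KO replicate 3).

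Targets of MEF2 were mixed. Of 6 vascular and immediate early targets 5 could be tested and 1 was called, 20% against 14.8% over all genes. It was the nuclear receptor gene Nr4a3, which fell, at 0.357, 0.709 and 0.527 CPM in KO/KO and 1.89, 1.52 and 1.30 CPM in WT/WT (log2 fold change -1.56, SE 0.35, edgeR adjusted p = 0.0178). It did not pass when WT/WT replicate 1 or 2 was left out (edgeR adjusted p = 0.0797 and 0.0657). Nr4a1, which HDAC7 represses in thymocytes, had 30.2, 34.9 and 27.0 CPM in KO/KO and 29.8, 29.3 and 26.4 CPM in WT/WT, with overlapping groups (log2 fold change 0.11, edgeR adjusted p = 0.611). Klf2, a flow-responsive factor of endothelium, had 5.61, 6.28 and 5.12 CPM in KO/KO and 3.79, 4.13 and 3.90 CPM in WT/WT, separated but not past the threshold (edgeR adjusted p = 0.0763, DESeq2 adjusted p = 0.0414). Mmp10, an HDAC7-repressed gene of endothelium, had 0 reads in all 6 libraries. Of 8 muscle targets 3 could be tested and none passed with edgeR, against 14.8% over all genes. Only Des had an unadjusted p under 0.05, and DESeq2 called it lower in KO/KO (log2 fold change -1.37, DESeq2 adjusted p = 0.039).

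Of 8 striated muscle markers 3 could be tested and none passed with edgeR, against 14.8% over all genes. All 3 had an unadjusted p under 0.05. DESeq2 called 2 in opposite directions, Myh1 lower (log2 fold change -1.98, DESeq2 adjusted p = 0.0446) and Tnnt3 higher (log2 fold change 1.87, DESeq2 adjusted p = 0.0352). The summed level of the 8 was between 54.8 and 85.6 CPM in KO/KO and between 42.1 and 58.6 CPM in WT/WT. Nearly all of it was the heart myosin gene Myh6, and Myod1, Myog and Acta1 were near 0. Of 6 smooth muscle and myoid markers 5 could be tested and Smtn rose, 20% against 14.8% over all genes. The summed levels of the 6 were 40.9 to 48.1 CPM in KO/KO and 24.6 to 37.9 CPM in WT/WT. Smtn made up most of these sums, at 34.9 ± 4.28 CPM in KO/KO and 18.8 ± 0.20 CPM in WT/WT (SD, n = 3 each), and the median log2 fold change of the list was -0.22. Myh11 had 4.98, 5.72 and 5.94 CPM in KO/KO and 11.0, 11.8 and 3.36 CPM in WT/WT (edgeR adjusted p = 0.281, and 0.0119 without WT/WT replicate 3). Des had 0.715, 0.223 and 0.791 CPM in KO/KO and 2.08, 1.39 and 1.0295 CPM in WT/WT, lower in all 3 KO/KO libraries (edgeR adjusted p = 0.0846, DESeq2 adjusted p = 0.0390).

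Genes around the class IIb enzymes were mixed. Of 7 genes listed with Hdac6 1 was called, 14.3% against 14.8% over all genes. It was the ubiquitin-dependent segregase gene Vcp, which fell, at 306, 310 and 289 CPM in KO/KO and 376, 386 and 400 CPM in WT/WT (log2 fold change -0.36, SE 0.07, edgeR adjusted p = 0.00841). Atat1, the acetyltransferase that HDAC6 opposes on tubulin, had 17.1, 17.7 and 18.1 CPM in KO/KO and 18.7, 19.2 and 14.8 CPM in WT/WT (edgeR adjusted p = 0.996). Of 9 polyamine genes listed with Hdac10, 2 rose and 1 fell, 33.3% against 14.8% over all genes. Odc1, the first enzyme of polyamine synthesis, had 107, 107 and 123 CPM in KO/KO and 67.2, 66.8 and 81.8 CPM in WT/WT (log2 fold change 0.64, SE 0.11, edgeR adjusted p = 0.00401).

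Smox, spermine oxidase, had 16.7, 29.8 and 25.4 CPM in KO/KO and 9.20, 9.66 and 5.17 CPM in WT/WT (log2 fold change 1.58, SE 0.26, edgeR adjusted p = 0.00443). Azin1, the antizyme inhibitor, had 67.0, 70.5 and 67.8 CPM in KO/KO and 87.9, 89.6 and 89.6 CPM in WT/WT (log2 fold change -0.38, SE 0.08, edgeR adjusted p = 0.00989), and lost its call without WT/WT replicate 2 (edgeR adjusted p = 0.0637). For these 3 genes the groups did not overlap. Amd1 passed without KO/KO replicate 1 (edgeR adjusted p = 0.0323) and Paox without KO/KO replicate 2 (edgeR adjusted p = 0.0201).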

How the data were processed

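The deposited files hold raw read counts for genes and repeat families. The submitters' processing notes name STAR 2.7.0a, featureCounts 1.5.1 and the mm10 build. Which annotation release was used, whether strand was used, and how reads with several positions were treated is not stated in those sources. RNA came from a PicoPure extraction with DNase treatment, and the kit was a SMARTer total RNA kit of the stranded kind, per the labels' protocols.

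The 1205 repeat family rows were left out of library sizes and tests. The test was the quasi-likelihood F test of edgeR 4.0.16, run in R 4.3.3 (TMM factors, filterByExpr, genotype as the only term, two-sided p, Benjamini-Hochberg adjustment over all genes tested, threshold 0.05). CPM used the gene totals and TMM factors, the SE is the log2 fold change divided by the square root of F, and 95% intervals used the t quantile at the fit's degrees of freedom. The fit was also run on simulated counts drawn with its own dispersions, which cannot show how it handles the uneven KO/KO libraries. GENCODE M21 gave positions, exon lengths and overlaps on GRCm38, which is the assembly of mm10, and RefSeq gave start windows on GRCm38.p6. Figures were drawn with matplotlib 3.10.9.

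The members and lists were chosen with earlier results of these data known. The genes named are the members, Dnmt3a, up to 4 list members with the smallest p plus those whose role is described, the neighbours within 250 kb, and the 5 most alike profiles. No protein sequences were used here, and 1 list gene is not reported here. Alternatives were RLE and upper quartile factors, other filters, DESeq2 1.42.0, the replicate number as a block, leaving out each library, and another length.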

Additional observations from a re-analysis of the deposited data

How the results depend on the processing

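Over the 12 alternatives the log2 fold change of Hdac7 was between 3.22 and 3.5. Hdac7 was chosen for its rise in these same libraries, so this range is a description and no support for the rise. None of the 9 other members was called under any alternative, whether other factors, other filters, DESeq2, a replicate block or fewer libraries. The number of genes called over the whole table ranged, with 1 library left out, from 814 to 1985 higher and from 560 to 1380 lower in KO/KO, and the lowest values came from leaving out WT/WT libraries (1083 and 652 without replicate 1, 814 and 560 without replicate 2, 892 and 663 without replicate 3). With the longest transcript as the length, the share of Hdac7 in the class IIa sum was 36.2% in KO/KO and 5.71% in WT/WT, since the union of exons lengthens the other 3 genes more than Hdac7. The replicate numbers alone do not show whether samples were paired. Deviations from the group means correlated at -0.193, 0.063 and 0.102 for same-numbered KO/KO and WT/WT libraries, and between -0.35 and 0.344 for the others. With 3 libraries per genotype these correlations cannot decide it. With the replicate block 1467 genes were higher and 1107 lower, and Sox18, Ywhaq, Carm1 and Senp1 lost their calls. Sall4 lost its call with RLE factors, upper quartile factors and a filter of 1 CPM in 3 libraries (edgeR adjusted p = 0.0502, 0.0637 and 0.0596). Senp1 also lost its call with upper quartile factors (edgeR adjusted p = 0.0587). Without the filter on low counts more list genes were called, among them Tbl1x, Jun and Sirt1, and DESeq2 also called Klf2, Amd1, Sat1, Paox and Camk1d; the cause was not tested. The calls of low genes such as Sfn and Nr4a3 rest on few reads.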
